A study of Mus musculus with 9 samples.

Results

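The 55 genes described here are the Wnt ligands, their receptors and the core of the beta-catenin pathway in the embryonic mouse brain. They were chosen by symbol from the 56748 genes of the count table, with earlier results of these data known. They comprised 19 Wnt ligands, 10 frizzled receptors, the coreceptors Lrp5 and Lrp6, 3 dishevelled genes and 4 genes of the destruction complex. The rest were beta-catenin with 4 TCF/LEF factors, 5 genes of R-spondins and receptors, 3 intracellular or membrane inhibitors and 4 secreted inhibitors or modulators. The study sequenced brain RNA of embryonic day 14 mice, 9 libraries in 3 groups of 3. Control libraries came from saline-treated mice. The other groups had been exposed to poly(I:C), an RNA analogue that triggers antiviral responses and serves as a model of maternal immune activation, or to valproic acid, an antiepileptic drug that inhibits histone deacetylases. The design text calls the unexposed mice wildtype, and strain, sex, litter, batch, dose and the time of exposure are not in the labels. Nor do these say whether a library is 1 embryo or a pool, so p-values measure the spread between these libraries, which may be technical.

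Wnt proteins are secreted lipid-modified ligands that bind a frizzled receptor together with Lrp5 or Lrp6. Without ligand, a complex of Axin, Apc and the kinase Gsk3b marks beta-catenin for degradation. With ligand, dishevelled recruits this complex to the membrane, and beta-catenin enters the nucleus and acts through TCF/LEF factors. In the embryonic forebrain the pathway is known for patterning the dorsal midline, for holding cortical progenitors in division and, through Wnt7a and Wnt7b, for guiding blood vessels into the neural tissue.

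The libraries held 15399974 to 19883131 counts, and 49 of the 55 members passed the filter on low counts. The ligands Wnt1, Wnt2, Wnt8a, Wnt10a, Wnt10b and Wnt16 did not, none of them reaching 1 CPM (the count scaled to a common library size) in any library. Neural markers were high throughout, 7036 to 7591 CPM summed over 10 genes. Midbrain and hindbrain markers were low although the design text names whole brain: En1, En2, Pax2, Pax5 and Fgf8 were between 0 and 1.24 CPM in every library, Fgf17, the other gene of that list, was at 1.69 to 5.14 CPM, and 8 hindbrain Hox genes, looked up after values were seen, summed to at most 0.234 CPM. The 9 skin, muscle and cartilage markers summed to 69.9 to 86.05 CPM over the 9 libraries, of which the cartilage collagen gene Col2a1 gave 63.1 to 78.0 CPM. Krt8, Krt18 and Acta1 were between 0.934 and 3.56 CPM, Acan was at most 0.398 CPM, and Krt5, Krt14, Myod1 and Myog were at most 0.175 CPM. Xist, the RNA of the inactive X chromosome, stood at 980.6 to 1055 CPM in all 3 valproic acid libraries and at 1048 CPM in poly(I:C) replicate 3, and at or below 0.236 CPM in the other 5. Kdm5d, Uty, Eif2s3y and Ddx3y, all on the Y chromosome, summed to between 196.4 and 201.4 CPM in replicates 1 and 2 of the control and poly(I:C) groups and had no count in the other 5 libraries, so control replicate 3 had neither. No control library expressed Xist and no valproic acid library expressed Y-linked genes: exposure and embryo sex cannot be told apart in the comparison of these groups, and no within-sex value exists for it.

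Levels were compared between genes as CPM per kb of exon. Wnt7b was the most abundant ligand in control brain at 30.6 ± 0.86 CPM per kb (SD, n = 3), followed by Wnt7a at 13.7 ± 0.90. These 2 ligands took 48.2% to 50.5% and 21.2% to 23.3% of the summed ligand level in the 9 libraries. Wnt5a, a ligand best known for signalling that bypasses beta-catenin, came next at 3.84 ± 0.38, then Wnt3 at 3.02 ± 0.16. Wnt8b at 2.26 ± 0.26 and Wnt5b at 2.24 ± 0.23 did not differ beyond their spread. Wnt3a, a ligand of the cortical hem, was at 0.774 ± 0.24 CPM per kb. Among receptors, Fzd2 stood at 20.4 ± 0.28, Fzd1 at 17.9 ± 1.4 and Fzd3 at 17.4 ± 0.49 CPM per kb, the latter pair within their spread of each other. Fzd8 followed at 11.2 ± 0.17 and Fzd5 was lowest at 1.09 ± 0.063. Beta-catenin (Ctnnb1) exceeded every other member at 179 ± 4.9 CPM per kb. Its TCF/LEF partners ranged from Tcf7l2 at 28.2 ± 2.1 down to Lef1 at 2.32 ± 0.28, and the secreted inhibitor Sfrp1, at 39.3 ± 0.66, was above each ligand and each frizzled gene.

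**Figure D1:**
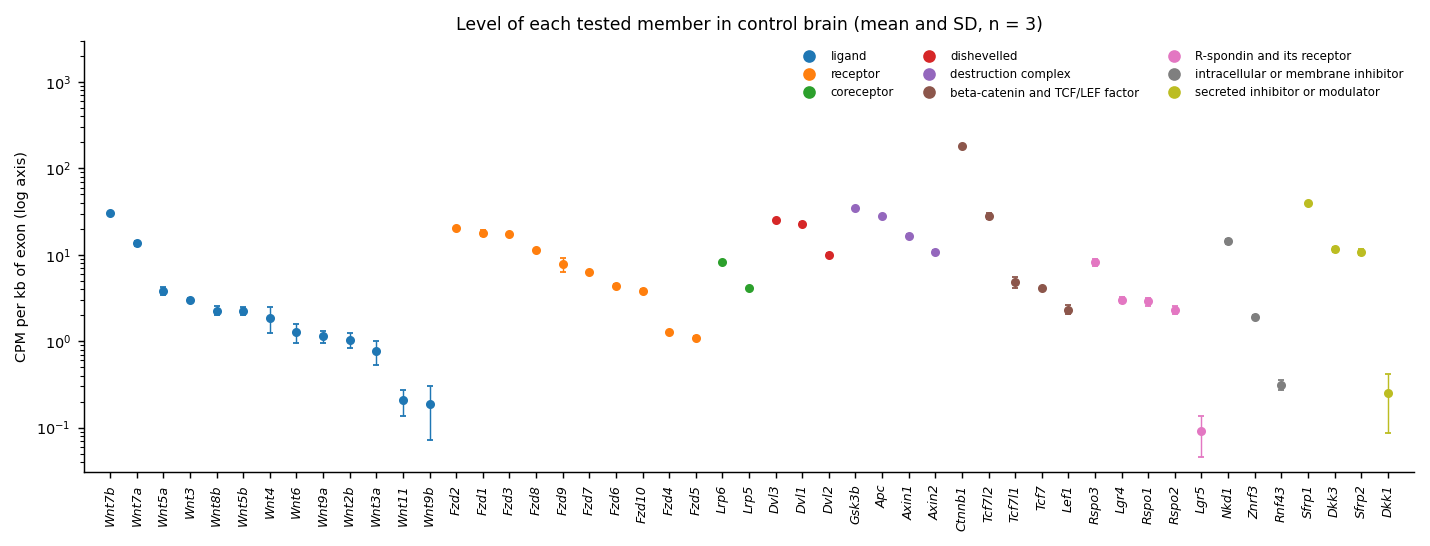
Mean level of the 49 tested members in the 3 control libraries, in CPM per kb of exon on a log axis, with SD bars and colours by role. Wnt7b leads the ligands at 30.6, Fzd2 the frizzled genes at 20.4, and Ctnnb1 lies above all at 179.

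In valproic acid against control, 8 members were called higher and none lower at an adjusted p under 0.05 (edgeR quasi-likelihood test, adjusted over 17171 genes): 8 of 49, or 16.3%, where 6.35% of all tested genes were called, 3.57% higher and 2.78% lower. They were the ligand Wnt9a, the receptors Fzd1, Fzd2 and Fzd8, beta-catenin, the TCF factor Tcf7l1, the dishevelled antagonist Nkd1 and the secreted inhibitor Sfrp1. The differences were small, 1.1-fold to 1.56-fold. The 3 valproic acid libraries lay above the 3 controls in 14 of 49 members and below them in none, where 12.6% of all tested genes lay above and 13% below (25.6% in all). The median log2 fold change of the members was 0.09, against -0.0033 over all tested genes. Called members had a median of 75.3 CPM and the tested members that were not called 18.9 CPM, so the depth behind them differed. The count fell to 2, Fzd8 and Sfrp1, without control replicate 3 or once Y-linked expression entered as a covariate, and to 0 with Xist as covariate. Calls over all genes fell in the same fits, from 1090 to 605, 272 and 19. The members' count was 3 to 5 without any other single library of the comparison, 4 without control replicate 1, 5 without control replicate 2, 3 without valproic acid replicate 1 or 2 and 4 without valproic acid replicate 3.

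The promoters of called members are shown because these genes moved the same way, and shared regulation was not tested. The RefSeq promoter table (build GRCm38.p6) held 5 of the 8, and the 250 bases before the start of each are given 5′ to 3′ on the gene's own strand. Capitals mark GC boxes, the letters GGGCGG or their reverse complement CCGCCC, which factors of the Sp family bind. Ctnnb1 (chr9:120933150-120933399, plus strand, the first of its 2 windows) held 3 GC boxes, Tcf7l1 (chr6:72789046-72789295, minus strand) 2 and Wnt9a (chr11:59306680-59306929, plus strand) 5. Fzd1 (chr5:4758217-4758466, minus strand) and Nkd1 (chr8:88527383-88527632, plus strand) held 0.
Ctnnb1: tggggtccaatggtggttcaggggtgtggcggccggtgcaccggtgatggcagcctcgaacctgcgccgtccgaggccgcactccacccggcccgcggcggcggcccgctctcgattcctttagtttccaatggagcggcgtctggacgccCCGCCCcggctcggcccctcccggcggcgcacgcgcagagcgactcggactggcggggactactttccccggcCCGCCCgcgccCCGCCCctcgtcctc
Tcf7l1: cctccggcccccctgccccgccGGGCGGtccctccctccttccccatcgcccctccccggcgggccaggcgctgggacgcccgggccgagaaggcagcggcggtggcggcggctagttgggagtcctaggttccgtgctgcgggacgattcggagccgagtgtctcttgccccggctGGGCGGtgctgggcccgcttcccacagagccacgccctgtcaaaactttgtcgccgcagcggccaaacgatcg
Wnt9a: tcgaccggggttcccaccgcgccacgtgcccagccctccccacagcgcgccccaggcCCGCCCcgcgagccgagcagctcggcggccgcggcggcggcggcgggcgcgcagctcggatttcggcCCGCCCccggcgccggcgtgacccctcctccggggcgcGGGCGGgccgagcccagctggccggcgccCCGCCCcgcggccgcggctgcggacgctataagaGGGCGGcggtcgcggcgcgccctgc
Fzd1: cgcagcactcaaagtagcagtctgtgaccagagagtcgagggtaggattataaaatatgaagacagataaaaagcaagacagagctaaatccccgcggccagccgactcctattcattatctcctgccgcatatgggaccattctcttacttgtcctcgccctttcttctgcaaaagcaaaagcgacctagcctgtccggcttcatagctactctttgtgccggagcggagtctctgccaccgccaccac
Nkd1: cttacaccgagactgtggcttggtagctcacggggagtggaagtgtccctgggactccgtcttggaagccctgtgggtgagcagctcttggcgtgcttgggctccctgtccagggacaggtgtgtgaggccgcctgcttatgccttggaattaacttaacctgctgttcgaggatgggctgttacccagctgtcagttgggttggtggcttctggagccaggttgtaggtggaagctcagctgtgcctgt
The 47 member windows came from 37 members. A GC box was found in 31 of these windows (66.0%), and in 32.7% of all 32851 windows of this length. These shares were not matched for base composition. The median share of G and C was 52.4% over all windows. It was 74.8% in the Ctnnb1 window shown, 73.6% in Tcf7l1, 84.4% in Wnt9a, 51.2% in Fzd1 and 58.4% in Nkd1. The core letters of a TCF/LEF site, CTTTGAT or CTTTGAA on either strand, were in none of the 5 windows shown. Those letters were in 3 of the 47 member windows (6.38%), those of Dkk1, Wnt5b and Wnt11, and in 7.48% of all windows. Each match is only a match of letters.

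Among the 13 tested ligands, Wnt9a was the 1 that was called. It was read at 4.31, 3.16 and 3.93 CPM in the controls, 5.37, 5.71 and 5.06 CPM with poly(I:C), and 6.60, 5.77 and 5.37 CPM with valproic acid. All valproic acid libraries were above all controls, and so were all poly(I:C) libraries. The log2 fold change for valproic acid was 0.64 (SE 0.162, adjusted p = 0.0312), the largest rise of any member. Wnt7b, which acts on vessel growth and cortical progenitors, was read at 146, 150.4 and 154 CPM in controls and 158, 162 and 163 CPM with valproic acid. Its groups did not overlap, but the log2 difference of 0.10 was not called (adjusted p = 0.123). Wnt8b, a ligand of the dorsal midline, was at 7.67, 7.05 and 8.86 CPM in controls and 9.75, 10.3 and 9.81 CPM with valproic acid (log2 difference 0.34, adjusted p = 0.114). The fitted log2 differences of the 13 ligands ran from -0.19 to 0.64, 7 positive and 6 negative. Summed ligand RNA was 263.5 to 278.6 CPM in controls, 268.0 to 271.8 with poly(I:C) and 281.6 to 292.8 with valproic acid.

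Receptors gave 3 of the 8 calls, out of 10 frizzled genes. Fzd8 was at 65.9, 67.6 and 67.8 CPM in controls and 80.6, 87.1 and 82.4 CPM with valproic acid, a log2 fold change of 0.31 (SE 0.0503, adjusted p = 0.00286). With poly(I:C) it was at 72.7, 66.3 and 68.0 CPM, across the control range. Fzd2 was at 74.9, 75.9 and 73.9 CPM in controls, 74.5, 69.5 and 73.6 CPM with poly(I:C), and 88.3, 83.0 and 84.1 CPM with valproic acid. Its valproic acid libraries stood apart from all 6 others, by 0.19 on the log2 scale over control (SE 0.0468, adjusted p = 0.0303). Fzd1 had its 80.8, 68.9 and 75.1 CPM in controls below both the 87.9, 83.1 and 89.0 CPM with poly(I:C) and the 85.7, 84.7 and 91.1 CPM with valproic acid. The valproic acid difference was called, at 0.22 (SE 0.0581, adjusted p = 0.0381). Fzd3, which is known for axon guidance, had overlapping groups (216 to 228 CPM in controls, 223 to 259 CPM with valproic acid). Summed frizzled RNA was 528.1 to 540.1 CPM in controls, 551.7 to 579.6 CPM with poly(I:C) and 577.8 to 615.4 CPM with valproic acid. In whole-tissue RNA more cells of a type and more RNA per cell cannot be told apart, and frizzled genes are close in sequence, so reads may be shared between them.

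Neither coreceptor was called. Lrp5 stood at 39.7, 40.3 and 41.0 CPM in controls, 45.9, 43.1 and 48.6 CPM with poly(I:C) and 49.9, 48.8 and 42.5 CPM with valproic acid. Both exposed groups lay above the controls, and the adjusted p was 0.0600 for valproic acid (log2 difference 0.22, SE 0.0667). Lrp6 differed by 0.09 (adjusted p = 0.228). Of the dishevelled genes, which carry the signal inside the cell, Dvl3 differed most, by 0.13 (adjusted p = 0.0737), and Dvl1 by 0.0009 (95% interval -0.11 to 0.11). No gene of the destruction complex was called. Axin1, its scaffold, was at 59.1, 65.2 and 65.8 CPM in controls and 70.5, 69.7 and 69.8 CPM with valproic acid (log2 difference 0.14, adjusted p = 0.127).

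Beta-catenin RNA was called higher with valproic acid. Ctnnb1 was at 906, 956 and 928 CPM in controls, 957, 945 and 955 CPM with poly(I:C) and 991, 1072 and 995 CPM with valproic acid. The lowest valproic acid library was above the highest control, and the log2 fold change was 0.13 (SE 0.0355, adjusted p = 0.0391). Tcf7l1, a TCF factor that mostly represses targets when beta-catenin is absent, was at 16.2, 21.6 and 18.7 CPM in controls, 22.8, 21.8 and 20.3 CPM with poly(I:C) and 23.1, 25.3 and 23.9 CPM with valproic acid (log2 fold change 0.36, SE 0.0976, adjusted p = 0.0417). The other TCF/LEF factors were not called. Tcf7 was at 10.3, 11.2 and 10.8 CPM in controls and 11.2, 8.92 and 9.36 CPM with valproic acid, a log2 difference of -0.14 (95% interval -0.38 to 0.11, adjusted p = 0.531). Lef1 was at 23.1, 19.2 and 18.7 CPM in controls and 19.5, 20.9 and 21.3 CPM with valproic acid, a difference of 0.02 (95% interval -0.19 to 0.22, adjusted p = 0.939).

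Nkd1, Axin2, Lef1 and Tcf7 were read as members that the pathway itself induces, which is not a full list of such members. Nkd1 was called and Axin2, Lef1 and Tcf7 were not. Axin2, the most widely used transcriptional readout of beta-catenin signalling, was at 57.5, 59.5 and 63.4 CPM in controls, 63.8, 58.7 and 64.1 CPM with poly(I:C) and 64.2, 61.5 and 66.0 CPM with valproic acid. These groups overlapped, and the valproic acid difference of 0.09 had a 95% interval from -0.03 to 0.21 (adjusted p = 0.384). Nkd1, also a target and an inhibitor that binds dishevelled, was at 60.4, 68.9 and 66.2 CPM in controls, 71.6, 69.0 and 70.2 CPM with poly(I:C) and 75.5, 75.1 and 73.0 CPM with valproic acid. Its valproic acid libraries were above all others, with a log2 fold change over control of 0.19 (SE 0.0527, adjusted p = 0.0421). Of the membrane ubiquitin ligases that remove frizzled receptors, Rnf43 was low at 1.43 to 2.63 CPM and Znrf3 stood at 14.2 to 17.9 CPM, and neither was called. None of the 5 R-spondin or Lgr genes, which protect receptors from these ligases, was called. Their fitted log2 differences ran from -0.65 to 0.25, the lowest with Lgr5 at 0.350 to 1.44 CPM over all libraries.

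Sfrp1, which binds Wnt proteins outside the cell and is made by cortical progenitors, had the smallest adjusted p of any member. It was at 170.1, 175 and 171 CPM in controls, 179, 182 and 179.6 CPM with poly(I:C) and 204, 203 and 195 CPM with valproic acid. The 3 groups did not overlap. The log2 fold change was 0.22 with valproic acid (SE 0.0347, adjusted p = 0.00234) and 0.07 with poly(I:C) (adjusted p = 0.475). The other secreted inhibitors were not called: Dkk3 was at 36.3 to 46.7 CPM, Sfrp2 at 22.1 to 28.03 CPM and Dkk1 at 0.177 to 1.07 CPM over the 9 libraries.

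**Figure D2:**
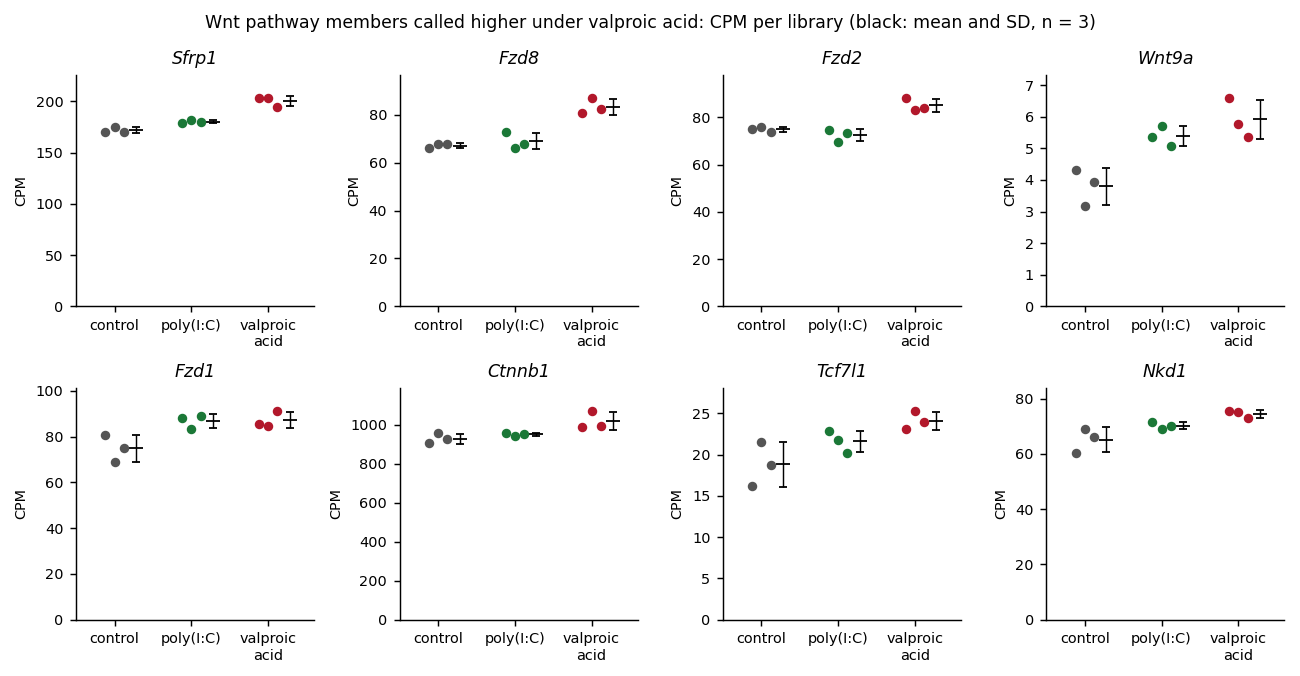
CPM in each library (points, coloured by group) for the 8 members called higher with valproic acid, with mean and SD (n = 3) in black and axes from 0. The valproic acid points lie above every control point in all 8 panels; in Wnt9a, Fzd1, Nkd1 and Sfrp1 the poly(I:C) points do so too, and in the other 4 they do not.

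Marker lists were also read for valproic acid against control, and their part in the result was not tested. Of all tested genes 6.35% were called in this comparison, 3.57% higher and 2.78% lower. The 7 dorsal forebrain markers summed to 1269 to 1341 CPM in controls, 1349 to 1369 CPM with poly(I:C) and 1405 to 1502 CPM with valproic acid, and 4 of 7 were called higher (Neurog2, Eomes, Lhx2 and Emx1). The progenitor gene Pax6 was called higher, and the neuronal genes Map2 and Stmn2 lower, among 10 neural markers. Diencephalic markers gave 0 higher and 1 lower of 7, and hem and choroid plexus markers 0 of 8. Red cell markers were called higher in 4 of 9, with sums of 1789 to 2081 CPM in controls, 1385 to 2004 CPM with poly(I:C) and 2253 to 2597 CPM with valproic acid. Endothelial markers were called higher in 2 of 12, with overlapping sums of 452.1 to 475.2 CPM in controls and 464.6 to 510.9 CPM with valproic acid. Meningeal and fibroblast markers were called higher in 1 of 11 (9.09%). Their sums overlapped too (748.2 to 793.7 CPM in controls, 733.5 to 941.1 CPM with valproic acid). Microglial markers were called lower in 2 of 8 (87.7 to 96.7 CPM in controls, 73.4 to 82.8 CPM with valproic acid). Fgf17 was called higher among the 3 tested midbrain markers, at 1.69 to 5.14 CPM over all libraries.

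In poly(I:C) against control no member was called: 0 of 49, where 0.536% of all tested genes were called. DESeq2 also called 0. At an unadjusted p under 0.05, 7 members were higher and 1 lower, where 12% of all tested genes passed in either direction. The smallest p belonged to Fzd1 (log2 difference 0.21, SE 0.0579, adjusted p = 0.143), Wnt9a (0.50, SE 0.162, adjusted p = 0.220) and Lrp5 (0.19, SE 0.0665, adjusted p = 0.264). For these 3 genes the log2 differences with valproic acid were 0.22, 0.64 and 0.22, over the same 3 controls, so the comparisons are not independent. Poly(I:C) libraries lay above the controls in 12 members and below them in 2, where 9.6% and 8.83% of all tested genes did so (18.4% in all). Rnf43 was 1 of the 2 below, at 1.46, 1.43 and 1.53 CPM against 1.89, 1.92 and 2.39 CPM (log2 difference -0.49, adjusted p = 0.408). Pathway readouts were not called: the interval of Axin2 ran from -0.07 to 0.17 and that of Lef1 from -0.04 to 0.36 on the log2 scale. Without replicate 3 of both groups, which leaves the 4 libraries with Y-linked expression, 2 per group, 0 members were called as well.

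Valproic acid against poly(I:C) gave 3 members higher and 0 lower, 6.12% of 49, where 2.59% of all tested genes were called (1.42% higher, 1.18% lower). Valproic acid libraries lay above those of poly(I:C) in 10 members and below in 2, where 21.9% of all tested genes did not overlap. Fzd8 differed by 0.27 on the log2 scale (SE 0.0503, adjusted p = 0.0126), Fzd2 by 0.23 (SE 0.0469, adjusted p = 0.0208) and Sfrp1 by 0.15 (SE 0.0347, adjusted p = 0.0321). For Fzd1 the difference was 0.01 (95% interval -0.12 to 0.13), for Wnt9a 0.14 (-0.20 to 0.47) and for Lrp5 0.04 (-0.10 to 0.18). Tcf7l2, a TCF factor strongly expressed in the thalamus, was at 260.2, 287 and 252 CPM with poly(I:C) and 215, 227 and 257 CPM with valproic acid, and its difference of -0.19 was not called (adjusted p = 0.149), though it was called lower when no filter on low counts was applied. Poly(I:C) replicate 3 was the only Xist-expressing library outside the valproic acid group. It held 68.0 CPM of Fzd8, 73.6 CPM of Fzd2 and 179.6 CPM of Sfrp1, below each of the 3 valproic acid libraries for each gene. A single library allows no test within this sex. No member was called without poly(I:C) replicate 2, without poly(I:C) replicate 3 or with either sex covariate, and 1, Fzd8, without valproic acid replicate 1. Red cell markers were called higher in 8 of 9 here and meningeal markers in 4 of 11 (666.6 to 702.3 CPM with poly(I:C)), and their part was not tested.

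**Figure D3:**
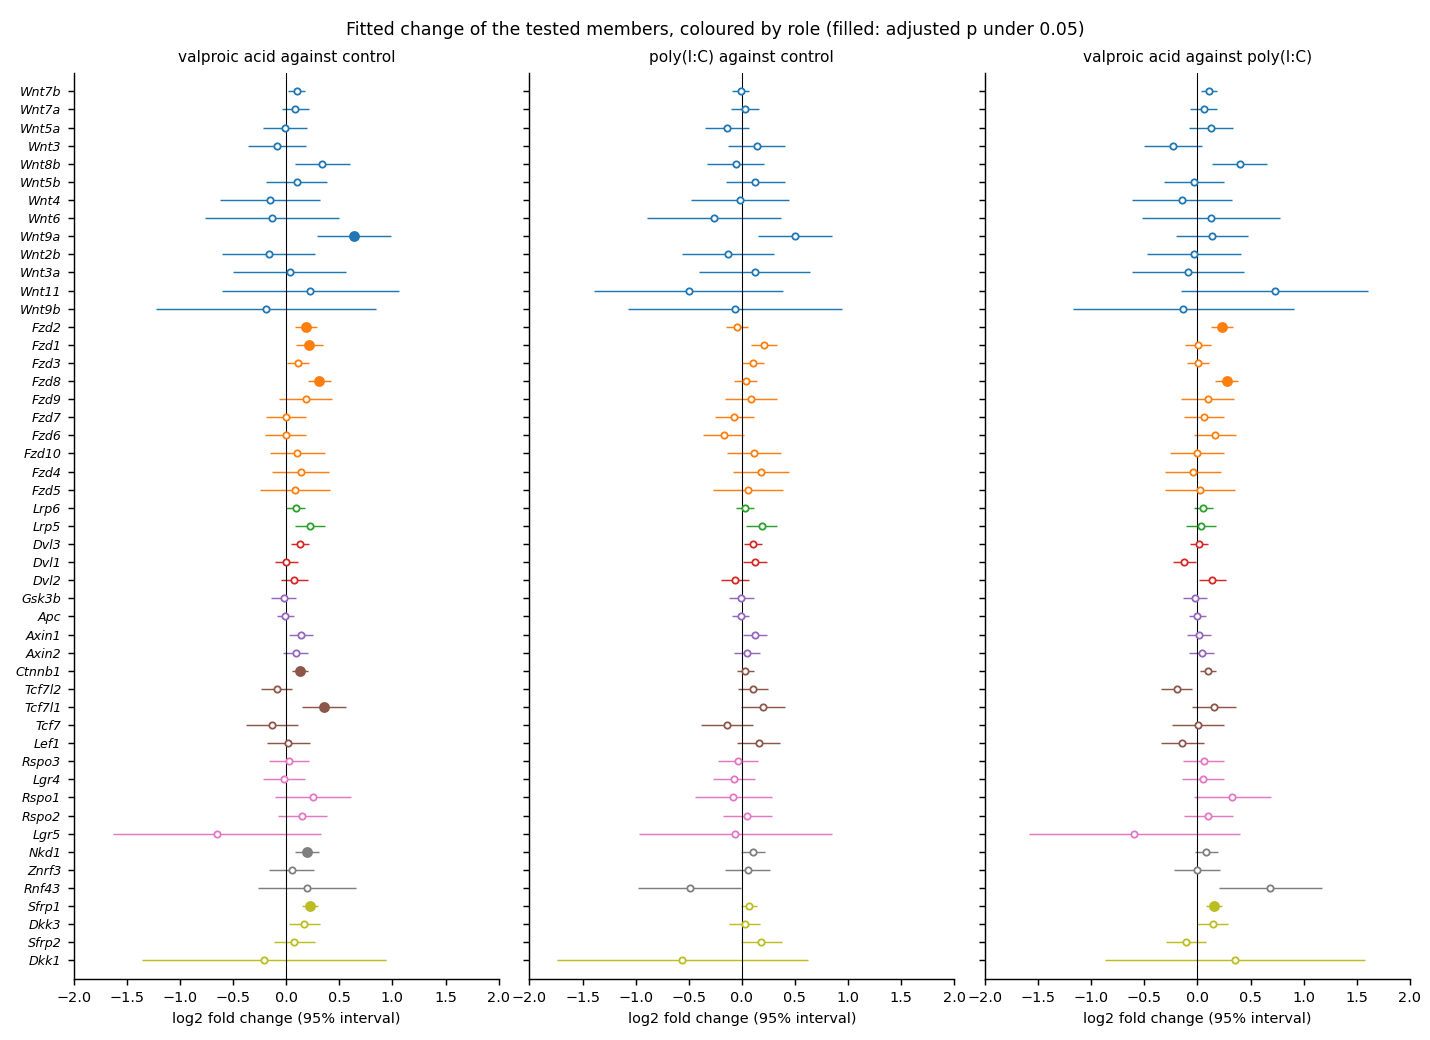
Fitted log2 fold change with its 95% interval (horizontal axis) for the 49 tested members (rows, coloured by role) in the 3 comparisons. Filled points have an adjusted p under 0.05: 8 for valproic acid against control, 0 for poly(I:C) against control and 3 between the exposures, all to the right of 0.

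The rest of the pathway was read from 97 further genes in 6 lists by role, also chosen with earlier results known. Of these genes 90 were tested (Nkd2 and Notum stand in 2 lists). With valproic acid against control 11 were higher and 3 lower, 15.6%, beside the 6.35% of all tested genes. The median log2 fold change was 0.04. With poly(I:C) against control 0 were higher and 1 lower (0.536% of all tested genes were called), and with valproic acid against poly(I:C) 2 were higher and 1 lower (2.59%).

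Planar polarity genes, which orient cells through frizzled receptors without beta-catenin, gave 3 higher of 18 with valproic acid against control. That was 16.7%, where 6.35% of all tested genes were called. Celsr1, an atypical cadherin of this system, was at 157, 180.5 and 165 CPM in controls, 179, 178 and 191 CPM with poly(I:C) and 194, 257 and 235 CPM with valproic acid. Its log2 fold change was 0.45 over control (SE 0.0789, adjusted p = 0.00493) and 0.32 over poly(I:C) (SE 0.0787, adjusted p = 0.0435). The difference from poly(I:C) was not called by DESeq2 or in the fit of the 6 libraries compared. Between the exposures, none of the 90 was called without poly(I:C) replicate 2, poly(I:C) replicate 3 or valproic acid replicate 3, and 1 without valproic acid replicate 2. The related Celsr2 (0.21, adjusted p = 0.0195) and the membrane protein Vangl2 (0.18, adjusted p = 0.0174) were called over control, but neither when replicate 1 or 3 of the controls or replicate 2 of valproic acid was left out. Vangl2 with poly(I:C) differed by 0.17 but was not called (adjusted p = 0.0776).

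Nuclear cofactors of beta-catenin gave 3 higher and 1 lower of 17 with valproic acid, or 23.5%, beside 6.35% of all tested genes. The histone methyltransferase gene Kmt2d was 0.29 higher (adjusted p = 0.00572) and the acetyltransferase gene Ep300 0.27 higher (adjusted p = 0.00882) on the log2 scale. Its relative Crebbp, named after its values were seen, was 0.17 higher (adjusted p = 0.0265). Tle4, a Groucho corepressor that TCF factors recruit, fell with valproic acid. It was at 109, 110.1 and 114 CPM in controls, 107, 116 and 108 CPM with poly(I:C) and 96.8, 92.9 and 96.6 CPM with valproic acid. Its log2 fold change was -0.22 over control (SE 0.0448, adjusted p = 0.0126) and -0.21 over poly(I:C) (adjusted p = 0.0258). The difference from control was not called without control replicate 3 (adjusted p = 0.0502). The difference from poly(I:C) was called in 2 of the 6 fits that left out a library, those without poly(I:C) replicate 1 or valproic acid replicate 1, and not with the replicate block.

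Known target genes outside the members gave 4 higher and 1 lower of 19 with valproic acid, or 26.3%, beside 6.35% of all tested genes. Neurog1, a proneural gene, was at 6.26, 4.12 and 6.97 CPM in controls, 5.59, 5.99 and 6.83 CPM with poly(I:C) and 10.2, 10.96 and 9.16 CPM with valproic acid (log2 fold change 0.80, SE 0.170, adjusted p = 0.0139). The cyclin gene Ccnd2 was 0.20 higher (adjusted p = 0.00858) and Jun 0.29 higher (adjusted p = 0.00897). Ccnd1, named after its values were seen, was 0.27 higher (adjusted p = 0.0195). Id2, an inhibitor of differentiation factors, was the 1 gene of the 90 called with poly(I:C): it was at 98.2, 87.4 and 91.4 CPM in controls and 74.9, 78.0 and 76.3 CPM with poly(I:C) (log2 fold change -0.27, SE 0.0494, adjusted p = 0.0260). That call was lost without control replicate 1 or 3 and without any 1 of the 3 poly(I:C) libraries. With valproic acid it was at 78.9, 80.7 and 77.5 CPM, also called lower (-0.22, adjusted p = 0.0168). These targets answer to other pathways as well.

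Of the turnover genes 1 of 20 (5%) was called with valproic acid against control, where 6.35% of all tested genes were. Frat1, which restrains Gsk3b, was lower (log2 fold change -0.27, adjusted p = 0.0390). It was called in 1 of the 6 fits that left out a library, that without valproic acid replicate 1, and not by DESeq2, in the fit of the 6 libraries compared or with the replicate block. In the list of secretion and extracellular handling 1 of 9 was called, the X-linked glypican gene Gpc4, higher by 0.24 (adjusted p = 0.0405). It too was called in 1 of those 6 fits, that without valproic acid replicate 3, and not in the fit of the 6 libraries compared or with the replicate block. None of 9 further secreted antagonists was called, and 1 of them passed an unadjusted p under 0.05, where 22.1% of all tested genes did. The most abundant, Draxin and Apcdd1, differed by -0.01 (95% interval -0.11 to 0.09) and 0.04 (-0.07 to 0.14). The count of 14 fell to 7 without control replicate 1, to 8 without control replicate 3, to 1 once Y-linked expression entered as a covariate and to 0 with Xist as covariate, beside the falls over all genes given above for these covariates.

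**Figure D4:**
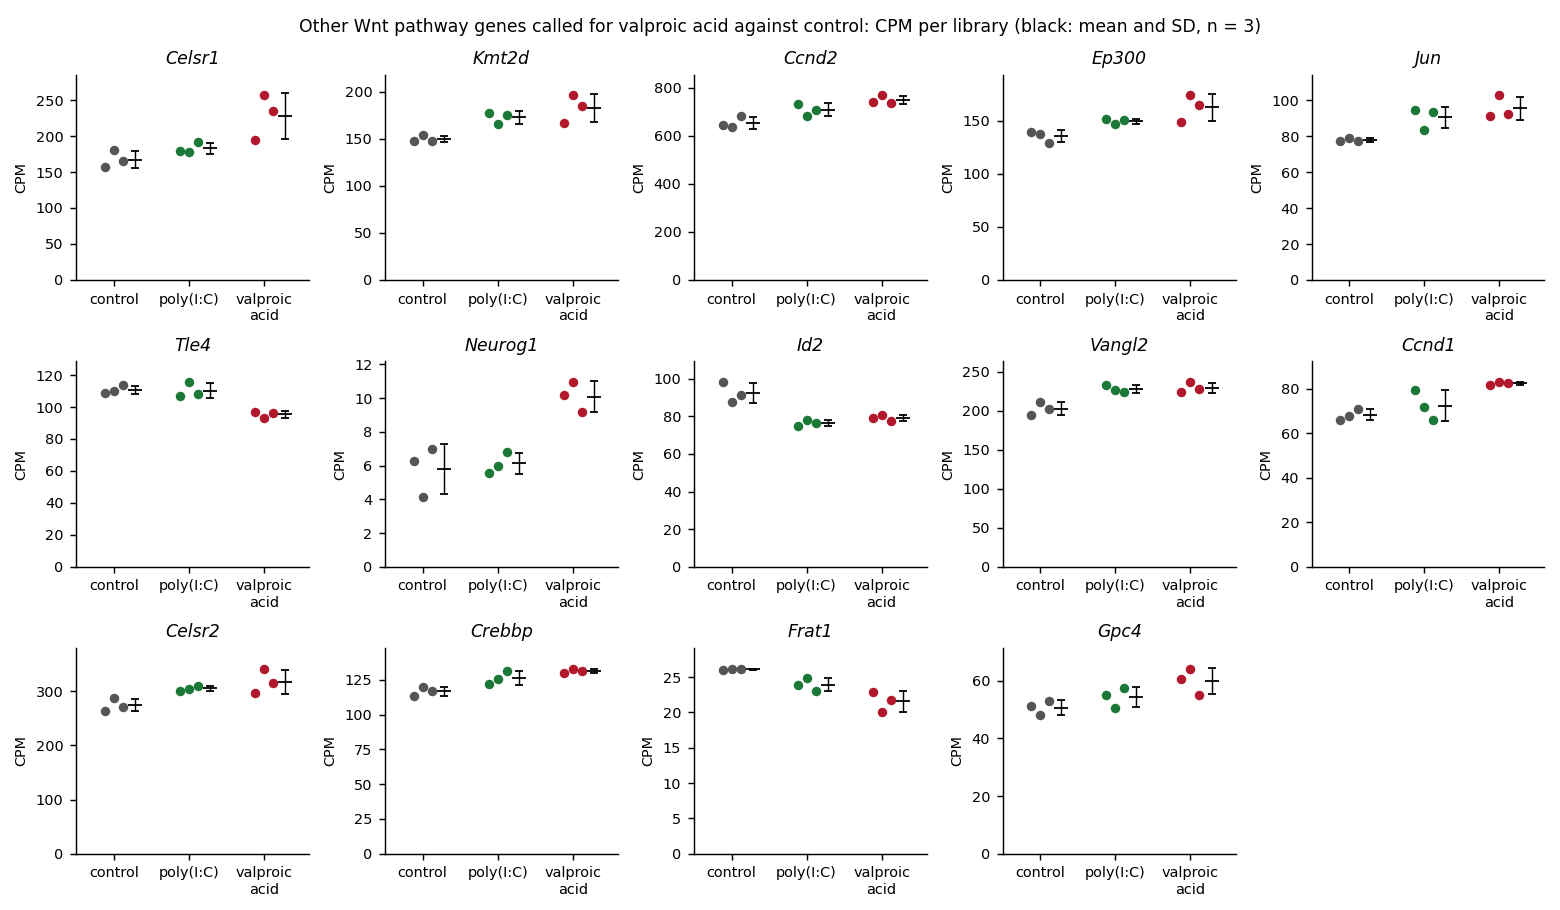
CPM in each library (points, coloured by group) for the 14 further pathway genes called for valproic acid against control, with mean and SD (n = 3) in black and axes from 0. Tle4, Id2 and Frat1 lie below the controls with valproic acid and the other 11 above, and Id2 is low with poly(I:C) too.

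The log2 fold changes of the 8 called members stayed positive under each alternative tried, while their calls did not all hold. Fzd8 and Sfrp1 were called in each of the 6 fits that left out 1 library of the comparison, with adjusted p of at most 0.0167 and 0.0149. The other 6 were called in 1 or 2 of those fits. With Xist as a covariate the estimate was 0.34 for Fzd8 (SE 0.0969, adjusted p = 0.279) and 0.23 for Sfrp1 (SE 0.0684, adjusted p = 0.294). Without it they were 0.31 and 0.22, with smaller errors. Xist differed widely within a group only in poly(I:C), through replicate 3. The covariate fit therefore rests on 1 library and gives no within-sex value. Fzd1 fell from 0.22 to 0.16 (SE 0.109) and Tcf7l1 went from 0.36 to 0.50 (SE 0.177) in that fit.

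**Figure D5:**
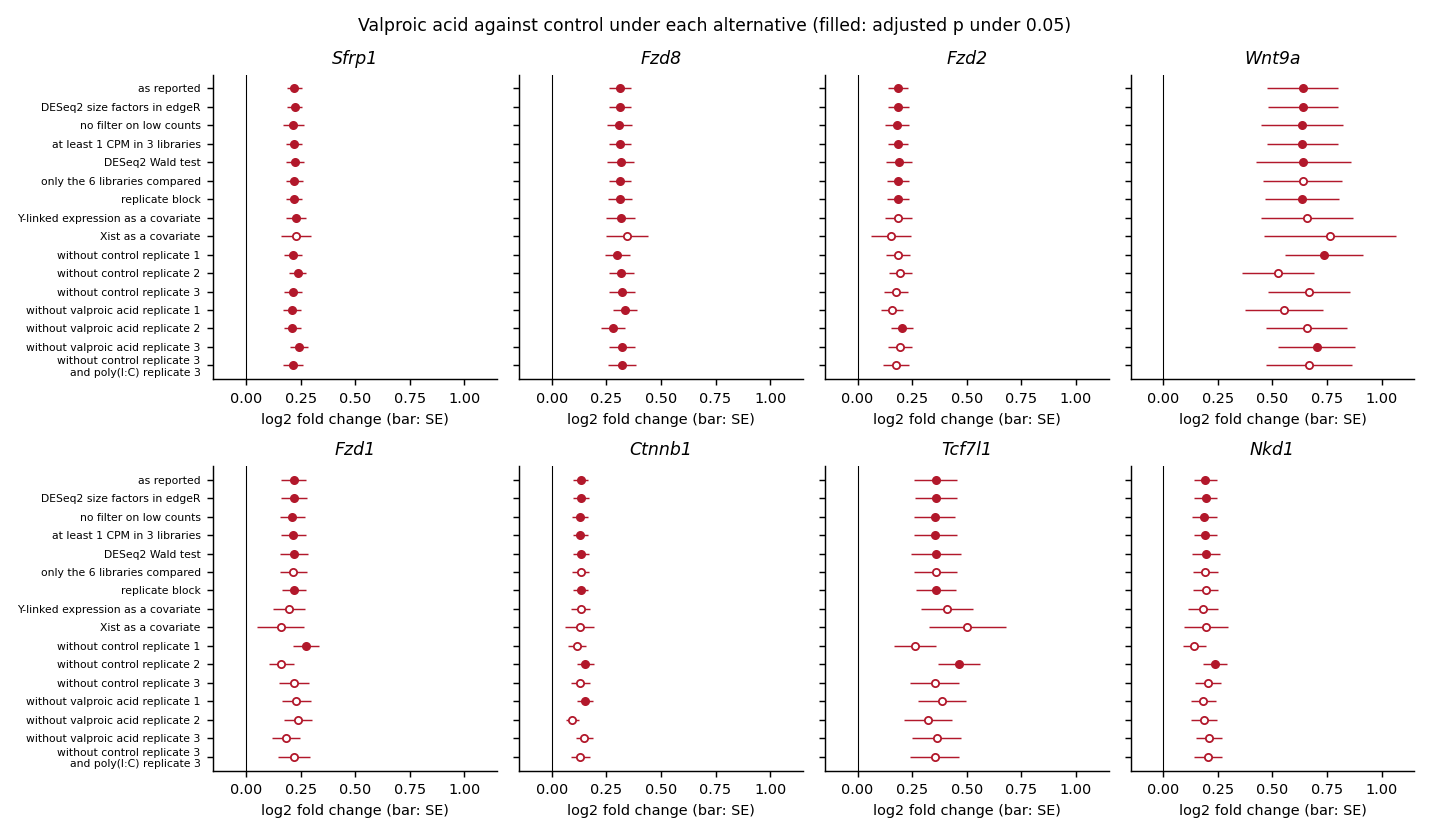
Log2 fold change for valproic acid against control (point, with SE bar) of the 8 called members under each alternative, one row per setting, filled where the adjusted p is under 0.05. All points lie right of 0; those of Sfrp1 and Fzd8 are open only with Xist as a covariate.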

How the data were processed

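RNA-seq was read from embryonic day 14 mouse brain in 9 libraries, 3 per group, grouped by the labels. Per the labels' protocols, ribosomal RNA was depleted from total RNA and the rest randomly fragmented. The authors deposited raw read counts per Ensembl gene, used here as deposited. Per the submitters' processing notes the aligner was HISAT2 and the build GRCm39 (mm39). No counter, strand setting or annotation release is given in the sources used here. Antisense partners and overlapping genes therefore cannot be separated, and near-identical genes may share reads. Symbols, chromosomes and exon lengths came from GENCODE M21, which gave no symbol to 4675 of 56748 genes. That release rests on another build, so gene coordinates are not given.

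Genes were kept by filterByExpr (min.count 10, min.total.count 15) of edgeR 4.0.16 in R 4.3.3, which left 17171. Library sizes were adjusted by TMM, and counts were fitted over all 9 libraries with a mean per group, and compared by two-sided quasi-likelihood F-tests, with Benjamini-Hochberg adjustment over all tested genes and calls at 0.05. The biological coefficient of variation was 7.44%. Standard errors are the log2 fold change over the root of F. The method was tested on simulated data. The planted changes were larger than those of most called members, so the test gives no check at their size. Within groups, the chi-square of library pairs, divided by its degrees of freedom, was 3.73 to 6.01, above counting error, so no library was a copy of another. CPM per kb divides by the length of all exons. Promoter sequences are from RefSeq (GRCm38.p6), and 37 of 55 members matched.

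Named were members called in any comparison, up to 3 with the smallest p where none was, Ctnnb1, Axin2, Lef1, Tcf7, Nkd1 and the most abundant ligand, frizzled gene and secreted inhibitor. From each further list up to 3 called genes were named, or up to 2 abundant ones as values. Other members named with values (Wnt7a, Wnt8b, Axin1, Dvl3, Rnf43 and Tcf7l2 among them) were chosen after values were seen. The members, lists and rules were chosen with earlier results of these data known. Alternatives were DESeq2 size factors, no filter, at least 1 CPM in 3 libraries, DESeq2 1.42.0, only the 6 libraries compared, a replicate block, Y-linked expression or Xist as a covariate, and leaving out each library. A fit without control replicate 3 and poly(I:C) replicate 3 was added after seeing the data.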

Additional observations from a re-analysis of the deposited data

How the results depend on the processing

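For valproic acid against control, DESeq2 size factors, a filter of 1 CPM in 3 libraries and DESeq2's Wald test each called the same 8 members, and no filter added Lrp5. The count was 3 with only the 6 libraries compared, 2 with Y-linked expression and 0 with Xist as a covariate, 2 without control replicate 3 and poly(I:C) replicate 3, and 2 to 5 when 1 library was left out. For poly(I:C) against control it was 0 except with no filter, where 1 (Fzd1) was called. Between the exposures no filter added Tcf7l2, called lower, for a count of 4, and the count was 0 with either covariate, 0 without control replicate 3 and poly(I:C) replicate 3, and 0 to 3 with 1 library left out. Of the further pathway genes, valproic acid against control gave 1 with Y-linked expression, 0 with Xist, 6 without control replicate 3 and poly(I:C) replicate 3 and 7 to 16 with 1 library left out. Poly(I:C) against control gave 5 with no filter, 3 with DESeq2's Wald test, 2 with only the 6 libraries compared, 0 with Xist, 0 without both replicates 3 and 0 to 1 with 1 library left out. Valproic acid against poly(I:C) gave 6 with no filter, 1 with the replicate block, 0 with either covariate, 0 without both replicates 3 and 0 to 2 with 1 library left out. The cause was not tested.

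Deviations of same-numbered libraries from their group means had correlations from -0.0416 to 0.131. The highest was that of control replicate 3 with poly(I:C) replicate 3. The labels do not say what the numbers mean, and weak correlations cannot show whether they pair libraries by litter or batch. With the replicate block 7 members were called for valproic acid against control, 0 for poly(I:C) against control and 2 between the exposures.

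Signs that turned were all of uncalled differences, here on the log2 scale. Lef1 for valproic acid against control was -0.182 with Xist as covariate, -0.0412 without both replicates 3, and -0.0412 to 0.119 with 1 library left out. In poly(I:C) against control, Fzd8 ranged from -4.97e-05 to 0.0673 and Wnt7b from -0.0311 to 0.00904 with 1 library left out, and Wnt7b was 0.00519 without both replicates 3. Between the exposures, Fzd1 was -0.0131 with Y-linked expression, -0.0313 with Xist and -0.0238 to 0.0290 with 1 library left out. Lrp5 was -0.0151, -0.0461 and -0.00495 to 0.106 in the same order, Axin2 -0.0216, -0.00340 and -0.00185 to 0.0663, and Tcf7 -0.0197, -0.0361 and -0.0971 to 0.0719.

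With 3 libraries per group and 7.44% variation, the changes near 1.1-fold sit close to what could be called, and the 6 ligands that failed the filter could not be compared. Calls over all genes for valproic acid against control ranged from 467 to 789 with 1 library left out and from 19 (Xist as covariate) to 1661 (no filter) otherwise.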

Other observations

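A pair of uncalled genes outside the members is also given, both chosen after their values were seen. Sfrp5, a secreted Wnt antagonist of low level, was read at 1.12, 1.02 and 0.946 CPM in controls, 0.651, 1.04 and 0.177 CPM with poly(I:C) and 0.175, 0.525 and 0.196 CPM with valproic acid. Its valproic acid libraries lay below all controls, with a log2 difference of -1.74 (SE 0.556, edgeR adjusted p = 0.0778). The X-linked glypican gene Gpc3 was at 48.9, 51.7 and 48.4 CPM in controls, 48.7, 52.9 and 49.9 CPM with poly(I:C) and 64.5, 50.01 and 68.5 CPM with valproic acid. Replicate 2 of valproic acid lay within the control range, and the log2 difference of 0.30 was not called (SE 0.0883, edgeR adjusted p = 0.0610).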
